A study of Mus musculus with 12 samples.

Results

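Open chromatin was compared between Sox9 Sublow and Sox9 Negative cells of the mouse intestinal epithelium. These are 2 of the 4 populations that the study sorted from C57Bl/6 mice by the level of a Sox9EGFP reporter, in which EGFP marks cells that express the crypt transcription factor Sox9. Every group carries the reporter, and the age, sex and number of animals are not given in the sources used here. Each population has 3 Omni-ATAC libraries, so 6 of the 12 libraries of the series enter the comparison, and the labels give 12000 cells collected per population. The deposited data are 1 consensus list of open regions (peaks) for each population on the mouse mm9 build, with positions and no signal. Spread between libraries is thus unknown, no test between the populations could be made, and the intervals below cover counting error only. Peaks of the 2 lists that overlapped by 1 bp or touched were merged into 58788 regions, and each region was classed as held by both lists, by Sublow only or by Negative only.

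The intestinal epithelium is renewed from stem cells at the crypt base. Their daughters divide several more times as transit-amplifying cells, then leave the cell cycle and move onto the villus as absorptive or secretory cells. Earlier work with this reporter found transit-amplifying progenitors enriched among Sublow cells and differentiated cells among Negative cells, so the pair spans the step from dividing progenitor to mature cell. Reporter level is a proxy for these states, and a sorted gate can hold more than 1 cell type. In ATAC-seq the transposase Tn5 inserts adapters into DNA that is not packed into nucleosomes, and a peak marks a promoter, enhancer or other site where insertions were dense. An mm9 annotation was not used here, so regions are given by position, and neither genes nor the marker genes of the sorted cells could be checked.

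Most open regions were listed in both populations, and more were listed in Sublow only than in Negative only. Of the 58788 regions, 37760 (64.2%) were held by both lists, 14273 (24.3%) by Sublow only and 6755 (11.5%) by Negative only, or 2.11 Sublow only regions for each Negative only region. These shares are the background for all counts below. As shares of each list, 72.6% of the 52113 Sublow peaks met a Negative peak (exact Clopper-Pearson 95% interval 72.2 to 73.0%), and 85.1% of the 45461 Negative peaks met a Sublow peak (84.8 to 85.5%). The Sublow list is the longer one. When only the 45461 widest Sublow peaks were kept, there were 9961 Sublow only and 9061 Negative only regions, a ratio of 1.10. Equal lists leave nearly equal numbers unmatched by construction, so the second ratio does not show what the first rests on, and the part of library depth in the longer Sublow list was not tested.

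The larger part of the additional Sublow coverage lay in regions that the Negative list also held. Sublow peaks covered 28.7 Mb and Negative peaks 21.5 Mb, with 19.1 Mb in common, which was 66.5% of the Sublow bases and 88.4% of the Negative bases. Sublow peaks had 5.12 Mb inside shared regions but outside Negative peaks, and 4.49 Mb in Sublow only regions. Negative peaks had 0.937 Mb and 1.56 Mb in the corresponding places. Of the 7.11 Mb by which Sublow coverage exceeded Negative coverage, 58.8% was extra width at shared regions and 41.2% was regions of its own.

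At a shared region the Sublow peak was usually the wider one and enclosed the Negative peak. In the 36763 regions with exactly 1 peak of each list, the median width was 560 bp in Sublow (order statistic 95% interval 555 to 564) and 451 bp in Negative (447 to 454). The Sublow peak was wider in 77.9% of them (exact interval 77.5 to 78.3%), and the Negative peak in 21.7%. The median log2 width ratio of Sublow over Negative was 0.21 (0.21 to 0.22), a 1.16-fold difference, and the middle 90% of regions ran from -0.50 to 1.32. The Sublow peak contained the Negative peak in 63.0% of these regions and lay inside it in 13.3%, and 23.6% were staggered. The extension was even on the sides, with medians of 32 bp towards lower and 31 bp towards higher positions, and the peak centres were a median of 28.5 bp apart. The lists thus placed the same sites at nearly the same centre with different extents. The width of a called peak grows with signal and with depth, and these cannot be told apart here.

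The width difference at shared sites peaked at middling widths as a ratio, and at larger widths in bases. The median log2 ratio was 0.28 in regions whose mean peak width was 300 to 400 bp (0.27 to 0.30, 5957 regions), 0.18 at 750 to 1000 bp (0.18 to 0.19) and 0.08 above 1500 bp (0.07 to 0.09, 480 regions). The share of regions with a wider Sublow peak was lowest at 200 to 300 bp, with 65.1%, and highest at 1000 to 1500 bp, with 89.0%. In bases, the median of Sublow minus Negative width was 69 bp at 300 to 400 bp (64 to 73), 108 bp at 750 to 1000 bp (104 to 112) and 93 bp above 1500 bp (85 to 103).

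Several Negative peaks under 1 Sublow peak were far more common than the reverse. Both were rare, as 36763 of the 37760 shared regions held exactly 1 peak of each list. In 918 regions 1 Sublow peak joined 2 or more Negative peaks, and in 74 regions 1 Negative peak joined 2 or more Sublow peaks, a 12.4-fold difference. Sublow peaks were also the wider ones at most shared sites, and the part of peak width or depth in these counts was not tested. The Negative peaks under a Sublow peak were a median of 262 bp apart, and the regions had a median width of 1274.5 bp. A Sublow peak covered 3 Negative peaks in 23 regions. In 1 of them, on chromosome 1 from 156944590 to 156946987, a single Sublow peak of 2398 bp spanned 3 Negative peaks with 1318 bp in all. The others named by the rule were on chromosome 1 from 42561992 to 42563379 and on chromosome 2 from 17948234 to 17949606. The only case of 3 Sublow peaks under 1 Negative peak was on chromosome 19 from 3850143 to 3852448, where the Negative peak measured 2267 bp and the Sublow peaks 1689 bp together. Next in that direction came regions with 2 Sublow peaks on chromosome 1, from 95582010 to 95583441 and from 127422567 to 127424369.

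Narrow peaks were the ones that the other list lacked, and at equal width a Sublow peak was more often unmatched than a Negative peak. Of Sublow peaks of 200 to 299 bp, 49.3% met a Negative peak (48.2 to 50.3%), and of Negative peaks of that width 74.2% met a Sublow peak (73.2 to 75.1%). At 500 to 749 bp the shares were 86.9% (86.3 to 87.5%) and 98.1% (97.8 to 98.4%). From 1000 to 1499 bp they were 98.5% and almost 100%, with 2694 of 2695 Negative peaks met. Both curves climbed with width and came together only at the widest peaks, where 984 of 987 Sublow and 398 of 400 Negative peaks of at least 1500 bp were met. The Sublow list is longer (52113 against 45461 peaks), and at most shared sites its peak was the wider one. Peaks of equal width were therefore not matched for site or signal.

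**Figure D1:**
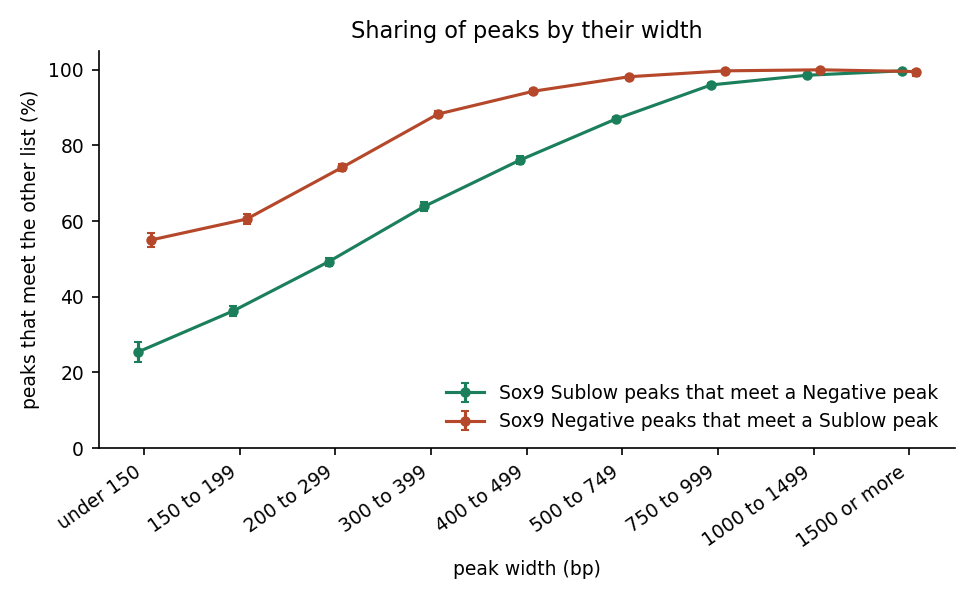
Share of peaks (%) of each list that overlap a peak of the other list, by peak width (bp); points are shares and bars exact 95% binomial intervals. The Negative points lie above the Sublow points in each bin up to 1000 to 1499 bp, for example 74.2% against 49.3% at 200 to 299 bp.

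Sublow only regions were wider than Negative only regions, and the excess of Sublow only regions grew with width. Their median width was 269 bp (266 to 272) against 201 bp (198 to 203), and regions in both lists had 591 bp (587 to 596). Below 200 bp there were 3889 Sublow only and 3347 Negative only regions, a ratio of 1.16. The ratio was 3.31 at 300 to 399 bp, 8.72 at 500 to 749 bp and 19.9 from 750 bp up, where 338 regions were Sublow only and 17 Negative only. At least 500 bp was reached by 12.9% of Sublow only regions (12.4 to 13.5%), 2.81% of Negative only regions (2.43 to 3.24%) and 61.7% of regions in both lists. At shared sites the Sublow peak was also the wider one in 77.9% of cases, and the lists hold no signal by which regions of the 2 classes could be matched.

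**Figure D2:**
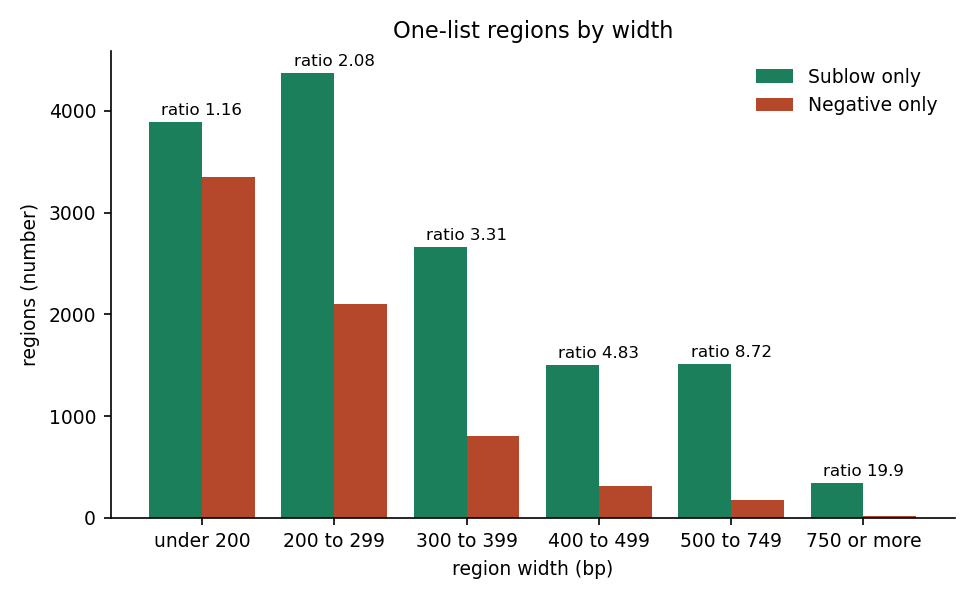
Number of regions held by 1 list only, by region width (bp), with the ratio of Sublow only to Negative only above each pair of bars. The classes are close below 200 bp (3889 and 3347) and far apart from 750 bp up (338 and 17).

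A few wide sites were listed in a single population. The widest Sublow only region covered 1927 bp on chromosome 13 from 60277240 to 60279166. No other region of either list lay within 50 kb, and the nearest Negative peak was 65107 bp away. The next, of 1680 bp on chromosome 5 from 118477630 to 118479309, stood among 6 other Sublow only regions within 50 kb and no region of another class. The third measured 1665 bp on chromosome 12 from 56699949 to 56701613. The widest Negative only region, of 1642 bp on chromosome 19 from 43867170 to 43868811, was instead surrounded by 8 shared, 1 Sublow only and 2 other Negative only regions within 50 kb. Those of 1607 bp on chromosome 6 from 129040661 to 129042267 and 1057 bp on chromosome 3 from 72690658 to 72691714 followed. The widest shared regions were on chromosome 17 from 39980066 to 39984014 (3949 bp in Sublow and 3682 bp in Negative), chromosome 11 from 102177932 to 102181047 (3116 and 3079 bp) and chromosome 5 from 125862962 to 125865890 (2435 bp in 2 Sublow peaks and 2662 bp in 1 Negative peak). No list of artefact-prone regions was applied here, so whether any of these is one was not tested.

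Some shared sites were wide in one population and narrow in the other. The 6 most extreme ratios by the rule paired a peak with one of 1 to 19 bp, and they say little about the sites. The largest was on chromosome 11 from 6505473 to 6505879, with 407 bp in Sublow and 1 bp in Negative. Next with a wider Sublow peak came regions on chromosome 4 from 147448812 to 147449706 (895 and 9 bp) and chromosome 2 from 58027783 to 58028564 (782 and 11 bp). Those with a wider Negative peak were on chromosome 6 from 29785707 to 29785976 (9 bp in Sublow, 270 bp in Negative), chromosome 8 from 60017295 to 60017632 (19 and 338 bp) and chromosome 11 from 88488320 to 88488474 (9 and 150 bp). Among 31370 regions whose peaks both reached 200 bp, a limit added after these values were seen, the largest contrast towards Sublow was on chromosome 8 from 47992502 to 47994049, with 1548 bp in Sublow and 213 bp in Negative (log2 ratio 2.86). Next were chromosome 14 from 26426151 to 26427825 with 1675 and 232 bp, and chromosome 16 from 84971854 to 84973362 with 1509 and 215 bp. Towards Negative the largest was on chromosome 6 from 28419806 to 28420962, with 223 bp in Sublow and 1157 bp in Negative (log2 ratio -2.38). It was followed by chromosome 2 from 69745113 to 69746021 with 203 and 909 bp, and chromosome 7 from 20451136 to 20452263 with 301 and 1128 bp.

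Most one-list regions lay well away from any peak of the other list. Sublow only regions lay a median of 8960 bp from the nearest Negative peak (8708 to 9205), and Negative only regions 4623 bp from the nearest Sublow peak (4421 to 4826). Within 1000 bp of a peak of the other list lay 10.4% of Sublow only and 15.9% of Negative only regions. More than 100 kb away lay 985 Sublow only regions (6.90%) and 102 Negative only regions (1.51%). With the 45461 widest Sublow peaks set against all 45461 Negative peaks, the median distances were 9504 bp for Sublow only and 4995 bp for Negative only regions. That setting drops narrow Sublow peaks and leaves the Negative list unchanged. It therefore cannot show what list length or depth adds to the difference. With a reciprocal overlap of 50% required, partly overlapping peaks counted as unmatched at distance 0, and the medians were 4883 and 511 bp.

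One-list regions of the same kind tended to follow each other along the chromosome. After a Sublow only region the next region was Sublow only in 32.2% of cases (31.4 to 32.9%), against 24.3% of all regions, and Negative only in 8.69%, against 11.5%. After a Negative only region the next was Negative only in 15.5% (14.6 to 16.4%), against 11.5%, and Sublow only in 17.1%, against 24.3%. Each class was thus next to itself more often, and next to the opposite class less often, than its share of all regions. With a reciprocal overlap of 50% this was lost for Negative only regions (17.2% against a share of 19.4%) and nearly so for Sublow only regions (30.9% against 29.7%). Under that rule 2 peaks that overlap too little become neighbours of opposite class by construction.

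Uninterrupted runs formed in each one-list class. Relative to its share of all regions, a Sublow only region was followed by its own class 1.32 times as often and a Negative only region 1.35 times as often. The classes thus followed themselves to a like degree in this setting, but not in every other one. With only the widest Sublow peaks kept, the widest 20000 peaks of each list or a reciprocal overlap, the Sublow only ratio was the higher. With peaks of at least 200 bp the Negative only ratio was the higher. Numbers and lengths of runs also depend on how common a class is, and Sublow only regions were the commoner ones. There were 987 runs of 3 or more consecutive Sublow only regions, with 3676 regions, and 140 such runs of Negative only regions, with 453. The longest Sublow only run held 15 regions over 350.7 kb on chromosome 4 from 62713876 to 63064531. By definition a run holds no peak of the other list. The regions of this Sublow only run were 11 to 819 bp wide, with a median of 277 bp. The longest Negative only run held 10 regions over 76.7 kb on chromosome 6 from 115959639 to 116036310, with widths of 152 to 369 bp and a median of 219 bp. Sublow only regions in runs of 3 or 4 had a median width of 286 bp (280 to 294) and single ones 259 bp (255 to 264). For Negative only regions the corresponding values, 212 bp (198 to 224) and 198 bp (195 to 201), had overlapping intervals.

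Windows of 100 kb were used to find where one-list regions were dense. Counts of such windows depend on the 14273 Sublow only and 6755 Negative only regions in all, and no number of windows for that difference was computed. Of 12947 windows with a region, 269 held 5 or more Sublow only regions and 35 held 5 or more Negative only regions. Among the 269, 159 held no Negative only region, and 14 no Negative peak at all. Among the 35, 5 held no Sublow only region. Over all 12947 windows, 4444 held a Negative only region and 7963 a Sublow only region. Most windows thus lacked a Negative only region, and its absence was not particular to windows dense in Sublow only regions. Of all 12947 windows, 1532 had no Negative peak and 281 no Sublow peak. A Sublow only region was present in 61.3% of windows with a Negative only region and in 61.6% of windows without one. Windows with no region at all were left out. Windows without a Negative only region thus had to hold a Sublow only or shared region, which raises their value. The closeness of these shares therefore cannot show whether the one-list classes occur independently.

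The windows richest in Sublow only regions held 9 of them, and all 4 such windows are given first. Windows with equal counts were ranked by the fewest regions in all. On chromosome 4 from 62800001 to 62900000, inside the longest run, all 9 regions were Sublow only, with a median width of 393 bp. On chromosome 1 from 135800001 to 135900000, 9 of 10 regions were Sublow only, and 1 shared region of 637 bp was the only place with a Negative peak. On chromosome 7 from 71100001 to 71200000, 9 regions were Sublow only and 3 shared. On chromosome 5 from 123400001 to 123500000 a busier window held 9 Sublow only, 10 shared and 1 Negative only region, the last of 40 bp. The fifth, on chromosome 15 from 102800001 to 102900000, held 8 regions, all Sublow only, with a median width of 185 bp. It was picked from 15 windows with 8 Sublow only regions because it had the fewest regions in all. Its lack of other classes thus follows from that rule.

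The windows richest in Negative only regions always held shared regions too. On chromosome 19, 8 of 12 regions were Negative only from 32100001 to 32200000, beside 3 shared and 1 Sublow only, and 8 of 12 from 57400001 to 57500000, beside 4 shared. On chromosome 9 from 121400001 to 121500000, 7 of 11 regions were Negative only. On chromosome 11 from 86700001 to 86800000, 7 of 15 were Negative only and 7 shared. On chromosome 7 from 139900001 to 140000000, 7 of 17 were Negative only, 7 shared and 3 Sublow only. Median widths of the Negative only regions in these windows ran from 172 to 222 bp.

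**Figure D3:**
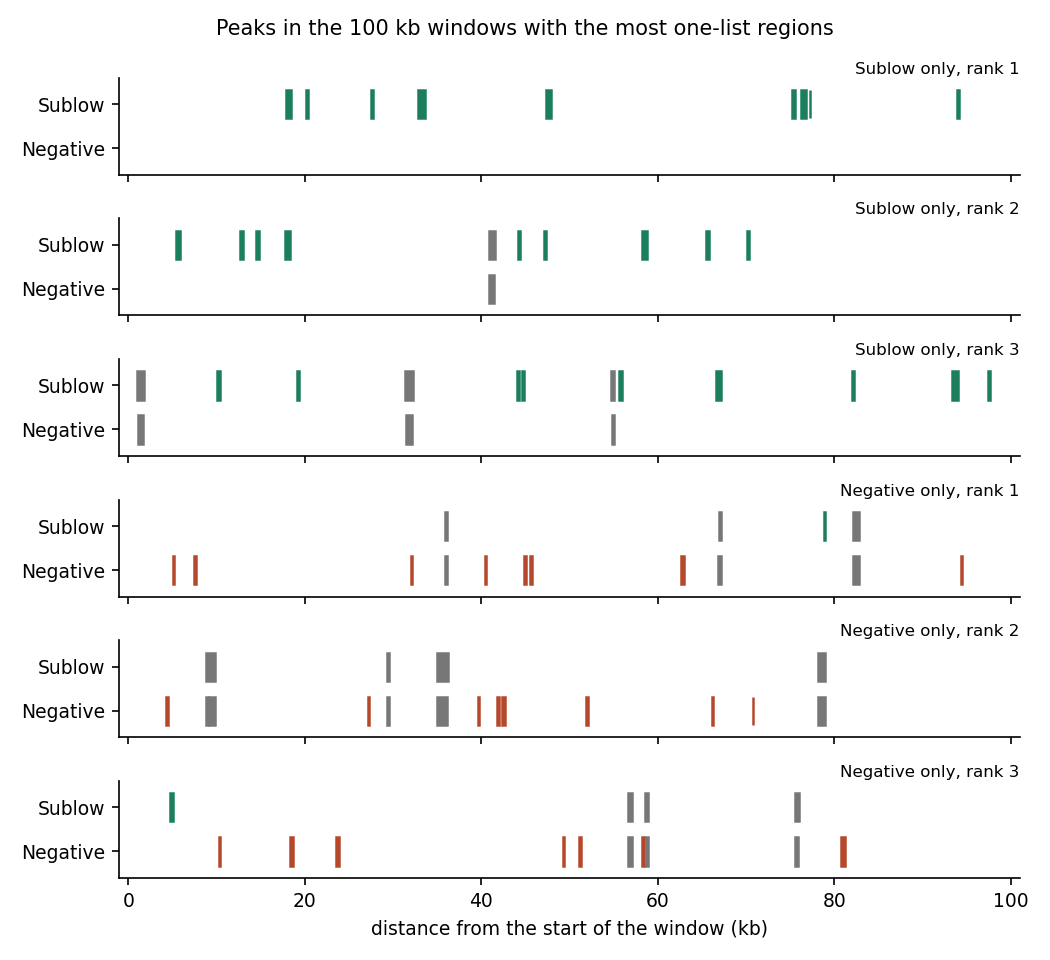
Peaks of the Sublow and Negative lists along the 3 windows with the most Sublow only and the 3 with the most Negative only regions, by distance from the window's start (kb). Coloured bars are peaks of 1 list only and grey bars peaks that overlap one of the other list, drawn with an outline that widens the narrowest. The first window holds 9 Sublow peaks and no Negative peak.

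Peak width at shared sites varied with the one-list regions around them. The 36763 shared sites with 1 peak of each list were grouped by the number of Sublow only minus Negative only regions in their 100 kb window. Where Negative only regions led by 4 or more, the median log2 width ratio was 0.13 (0.10 to 0.16, 373 sites), and the Sublow peak was wider in 67.6% of sites. With equal numbers it was 0.21 (0.20 to 0.22, 11132 sites). Where Sublow only regions led by 4 or more it was 0.28 (0.25 to 0.30, 1851 sites), and the Sublow peak was wider in 82.6%. The medians of the 9 groups were in order, from 0.13 over 0.14, 0.14, 0.17, 0.21, 0.23, 0.24 and 0.25 to 0.28, though neighbouring intervals often overlapped. Sublow peaks remained the wider ones in each group. With equal numbers the median widths were 580 bp in Sublow and 466 bp in Negative. They were 551 and 413 bp where Sublow only regions led by 4 or more, and 509 and 431 bp where Negative only regions did. Peaks of both lists were thus narrower in these 2 end groups. Where Negative only regions led by 2 or by 3, the Negative median was 468 bp and so not narrower.

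**Figure D4:**
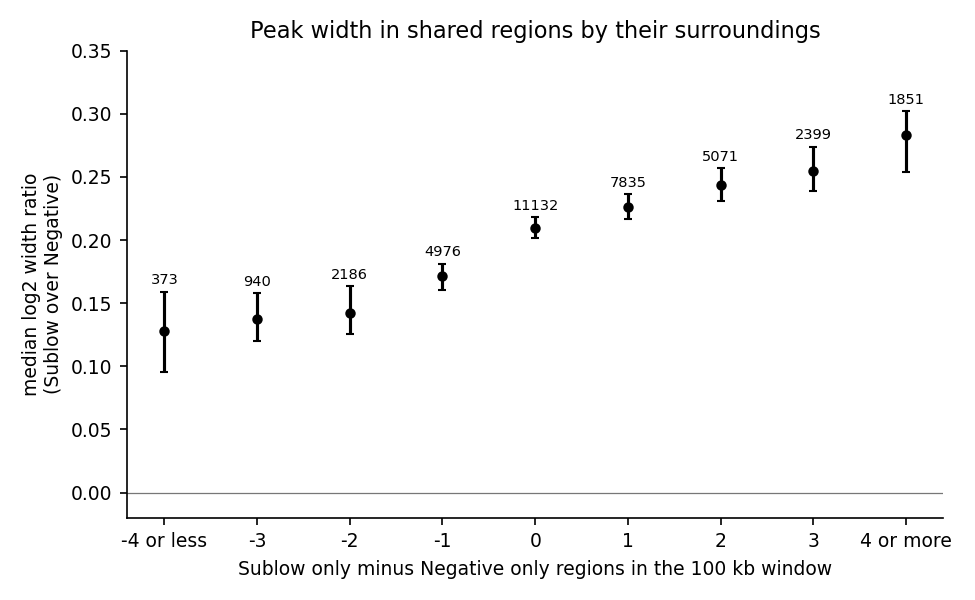
Median log2 ratio of Sublow over Negative peak width at shared sites, by the number of Sublow only minus Negative only regions in the 100 kb window around them; bars are order statistic 95% intervals and the numbers above them count sites. The medians go from 0.13 at the left to 0.28 at the right.

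The same sites showed this order when grouped at shorter range, within bands of width and on single chromosomes, which adds no independent data. Shared sites within 20 kb of a Sublow only but not of a Negative only region had a median log2 ratio of 0.25 (0.24 to 0.26, 10638 sites). Those within 20 kb of a Negative only but not of a Sublow only region had 0.15 (0.14 to 0.16, 6194 sites). Sites near neither had 0.22 (0.22 to 0.23), and sites near both had a lower value of 0.18 (0.17 to 0.19, 4760 sites). Among sites with a mean width of 200 to 400 bp, the ratio was 0.08 (0.01 to 0.13) where Negative only regions led by 3 or more and 0.39 (0.34 to 0.44) where Sublow only regions did. At 600 to 900 bp the values were 0.17 (0.14 to 0.21) and 0.23 (0.21 to 0.25), with intervals that overlapped. On each of the 19 autosomes the median was higher where Sublow only regions led by 2 or more than where Negative only regions did, by 0.05 to 0.26. Widths and classes come from the same lists and libraries, so these values describe those lists, and local differences in sensitivity were not tested.

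The chromosomes differed little. Sublow only regions outnumbered Negative only regions on all 19 autosomes, by 1.81-fold (chromosome 19) to 2.66-fold (chromosome 15). The Sublow only share ran from 21.3% on chromosome 19 (19.5 to 23.2%) and 21.9% on chromosome 11 (20.6 to 23.1%) to 26.3% on chromosome 18 (24.4 to 28.4%), and for 16 of the autosomes the interval held the genome share of 24.3%. The Negative only share was lowest on chromosome 15, at 9.70% (8.54 to 11.0%), and highest on chromosome 14, at 12.9% (11.6 to 14.4%). Chromosome 19, with the lowest Sublow only share, also had the lowest median log2 width ratio of the autosomes at 0.17 (0.14 to 0.18).

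The X chromosome had a higher median width ratio than the autosomes together, and one-list shares near the ends of their range. Of its 1170 regions, 26.9% were Sublow only (24.4 to 29.6%) and 9.74% Negative only (8.10 to 11.6%), or 2.76 to 1. Its shared sites had a median log2 width ratio of 0.29 (0.25 to 0.32, 716 sites), above the 0.21 of the autosomes. The highest single autosome was chromosome 2 at 0.23 (0.22 to 0.25), and its interval overlapped that of X at the edge. Chromosome 18 had nearly the same Sublow only share (26.3%), and chromosome 15 a slightly lower Negative only share (9.70%). The Negative share interval on X held the genome share of 11.5%, and the Sublow share interval lay just above 24.3%. On the Y chromosome 12 of 21 regions were shared, 4 Sublow only and 5 Negative only, too few to compare.

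**Figure D5:**
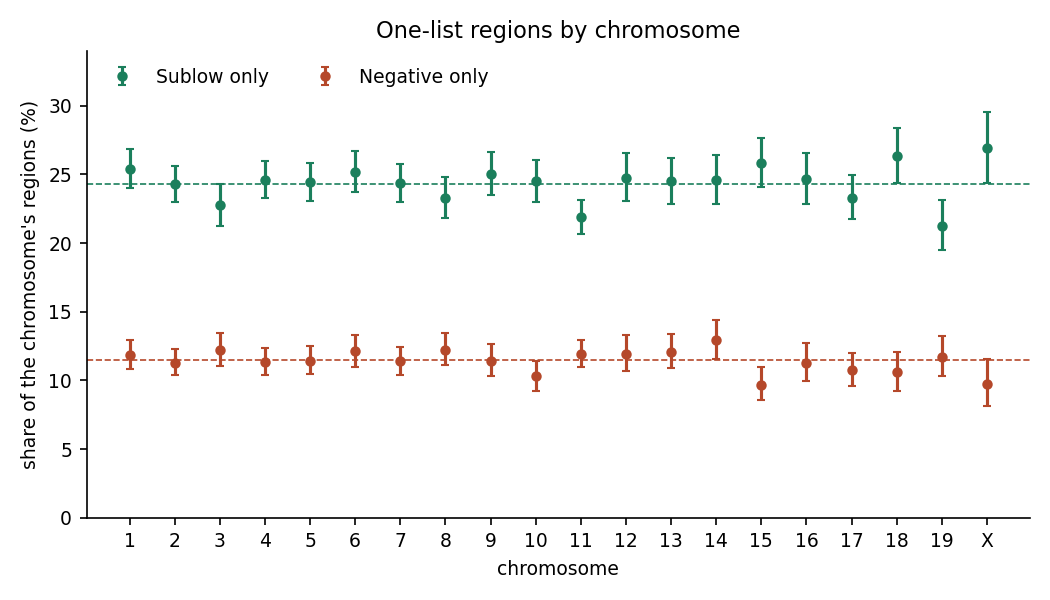
Share of each chromosome's regions (%) that were Sublow only or Negative only, with exact 95% binomial intervals; dashed lines are the genome shares of 24.3% and 11.5%. Sublow only lies above Negative only on each chromosome shown, with the lowest Sublow only share on chromosome 19 (21.3%) and the highest on X (26.9%).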

How the data were processed

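Per the submitters' processing notes, the mm9 build was used with MACS2 2.1.2, Bowtie2 2.3.4, deepTools 2.5.2, Trim Galore 0.4.3 and Picard 2.10.3. Their settings, the consensus rule and any shift for the Tn5 offset are not given in the sources used here. For each population the authors deposited 1 list of peak positions, without scores or counts, so depth is unknown and replicates could not be compared. Positions were read as counted from 1 with the end included, because 2 Sublow peaks and 1 Negative peak had equal start and end.

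Distances are the bases between regions, and windows of 100 kb hold the regions whose centre falls in them. Shares have exact (Clopper-Pearson) and medians order statistic 95% intervals. Both treat regions as independent. The regions named are, for each one-list class, the 5 windows with the most regions, the 3 widest regions and the longest run, with the 3 widest shared regions, the 3 largest width ratios each way and the 3 regions where 1 peak spans most peaks of the other list. Windows with equal counts were ranked by fewer regions in the window, then by the lower chromosome and position. Members, lists and rules were chosen with earlier results of these data known. The grouping of shared sites by surrounding regions and the limit of 200 bp on width ratios were chosen after seeing the values. Gene lists and motifs were not analysed here, for want of an mm9 annotation. The functions were tested on simulated data. Python 3.11.15 was run with scipy 1.17.1, pandas 2.3.3, matplotlib 3.10.9 and numpy 2.4.6.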

Additional observations from a re-analysis of the deposited data

How the results depend on the processing

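No paired analysis was possible because the lists give no values for single libraries, and so no replicate could be left out. In the 6 alternatives that change the lists or the matching, Sublow only regions had the larger median width, and the Sublow peak was the wider one at most shared sites. In 2 of them only the widest peaks were kept, so those 2 do not test widths. A reciprocal overlap of 50% gave 12554 Negative only regions, a Sublow only share of one-list regions of 60.5% (67.9% in the report's setting), a Jaccard index over bases of 0.540 (0.612), a median log2 width ratio of 0.18 with a wider Sublow peak in 76.9% of shared regions, median widths of 314 and 211 bp and median distances of 4883 and 511 bp for Sublow only and Negative only regions, and shares with a next region of the same class of 30.9% and 17.2%. Joining peaks that lay up to 500 bp apart gave a Sublow only median width of 275 bp, distances of 9868 and 5209 bp, and 14.6% of Negative only regions followed by their own class. Peaks of at least 200 bp gave 4499 Negative only regions, a Sublow only share of 75.5%, an index of 0.609, a ratio of 0.19 with 78.6% wider in Sublow, widths of 327 and 274 bp, distances of 10251 and 5284 bp, and same-class shares of 33.9% and 12.2%. They also brought the difference in log2 width ratio between windows led by 3 or more Sublow only and by 3 or more Negative only regions from 0.130 to 0.0939. That difference was 0.15 with windows that start 50 kb later, 0.13 on autosomes and 0.15 with the shortened Sublow list, alternatives added after seeing the data. The widest Sublow peaks, as many as Negative has, gave a Sublow only share of 52.4%, an index of 0.615, a ratio of 0.23 with 80.8% wider in Sublow, a Sublow only width of 332 bp, distances of 9504 and 4995 bp, and same-class shares of 26.6% and 20.01%. The widest 20000 peaks of each list gave 4060 Sublow only, 3952 Negative only and 15936 shared regions, a share of 50.7% (49.6 to 51.8%), an index of 0.615, a ratio of 0.19 with 88.8% wider in Sublow, widths of 677 and 503 bp, distances of 21570.5 and 12777 bp, and same-class shares of 22.9% and 18.4%. The last 2 alternatives hold equal numbers of peaks, so their near-equal one-list counts follow by construction and say nothing about the stability of the ratio. Both also select peaks by width. The narrowest peak kept was 207 bp in Sublow and 1 bp in Negative with the shortened Sublow list. With the widest 20000 peaks it was 570 and 440 bp. Their wider Sublow peaks can follow from these cuts and do not test the width difference. On autosomes only, the index was 0.612 and the other values stayed within their intervals. The same-class shares are to be read beside each class's share of all regions, which changed too. For Sublow only and Negative only regions it was 24.3% and 11.5% in the report's setting. It was 29.7% and 19.4% with the reciprocal overlap, and 23.5% and 11.0% with joined peaks. Peaks of at least 200 bp gave 27.3% and 8.88%, the shortened Sublow list 18.3% and 16.6%, and the widest 20000 peaks 17.0% and 16.5%. Windows that start 50 kb later held up to 11 Sublow only and 10 Negative only regions, against 9 and 8. Depth is unknown, so a site missing from a list may be closed or may have been missed.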
